A study of Rattus norvegicus with 4 samples.

Results

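Genes that make, carry and buffer ATP in heart muscle were followed across a sequencing experiment on miRNA mimics. The members are 3 of the creatine kinase genes, Ckm, Ckmt2 and Ckb, the myoglobin gene Mb, the heart fatty acid binding protein gene Fabp3, and the ADP/ATP carrier genes Slc25a4 and Slc25a5. They were picked by symbol, and all 7 were found, each listed once, among the 15731 genes of the deposited values. Total RNA came from ventricular cardiomyocytes of wild type Wistar rats at postnatal day 1 (day 0 in one protocol), and every culture received a transfected mimic. The control mimic was the worm miRNA cel-miR-67. The other mimics were hsa-miR-25-3p, hsa-miR-93-5p and the third member of their cluster, hsa-miR-106b-5p. The concentration is given as 25 nM in one protocol and as 25 mM in another, and RNA was harvested 72 h after transfection. Cells that attach fast had been removed by pre-plating, which leaves mostly, but not solely, cardiomyocytes. Each mimic gave 1 library, so no difference has a replicate check, no p-value is given, and every interval covers counting error only.

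Creatine kinases pass a phosphate group between ATP and creatine and so keep ATP in supply where it is used. The muscle type Ckm works in the cytosol near the contractile apparatus, Ckmt2 sits between the mitochondrial membranes of striated muscle, and the brain type Ckb prevails in the embryonic heart before Ckm takes over. Myoglobin stores oxygen in heart and slow muscle fibres, Fabp3 carries fatty acids through the cytosol, and the carriers exchange ADP for ATP across the inner mitochondrial membrane, with Slc25a4 the form of heart and skeletal muscle and Slc25a5 the form of dividing and many other cells.

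The mature miRNAs are shown because 2 of the 3 share a seed, the bases that lead target recognition, and the other does not. The rat sequences from RefSeq are printed (build GRCr8), with the seed, bases 2 to 8, in capitals. The mimics carry human names, and the sequence of cel-miR-67 is not shown here.
rno-miR-106b-5p: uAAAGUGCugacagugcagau
rno-miR-93-5p: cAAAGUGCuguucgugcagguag
rno-miR-25-3p: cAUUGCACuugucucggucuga
All 3 lie on the minus strand of chromosome 12, at chr12:22157103-22157123 for miR-106b, chr12:22156894-22156916 for miR-93 and chr12:22156652-22156673 for miR-25. miR-106b and miR-93 share the seed AAAGUGC, and miR-25 has the seed AUUGCAC.

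A level is given in RPKM, reads scaled to gene length and library size, which allows genes to be compared per length. Reads on listed genes numbered between 15175185 and 18797234 per library. A gene was tested in a comparison where its RPKM was above 1.0 in both libraries, and it was called upregulated or downregulated past a cutoff of 1.3-fold. The summed level of the 7 genes was 1760 RPKM in the control library, 956 after miR-25, 1978 after miR-93 and 2024 after miR-106b. Slc25a4 was the highest of the 7 in every library and held between 35.7% and 44.1% of the sum, and Ckmt2 was the lowest. On the scale of the deposited values, the miR-25 library had the lowest level of each of the 7 genes. The remaining libraries lay closer together, with the highest of the 3 over the lowest between 1.13-fold for Ckb and Slc25a5 and 1.55-fold for Ckm.

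**Figure D1:**
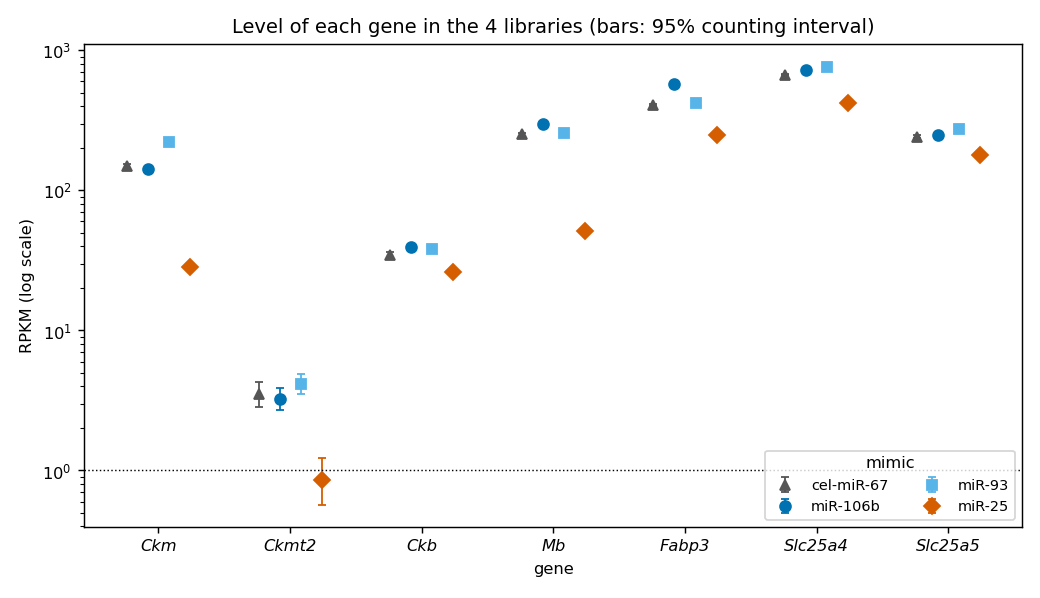
RPKM of each gene on a log axis in the 4 libraries, with 95% exact Poisson counting intervals as bars and a dotted line at 1 RPKM. The miR-25 points lie lowest for every gene, with Ckm at 28.2 RPKM against 142 to 221 elsewhere and Ckmt2 at 0.849 RPKM below the line.

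**Figure D2:**
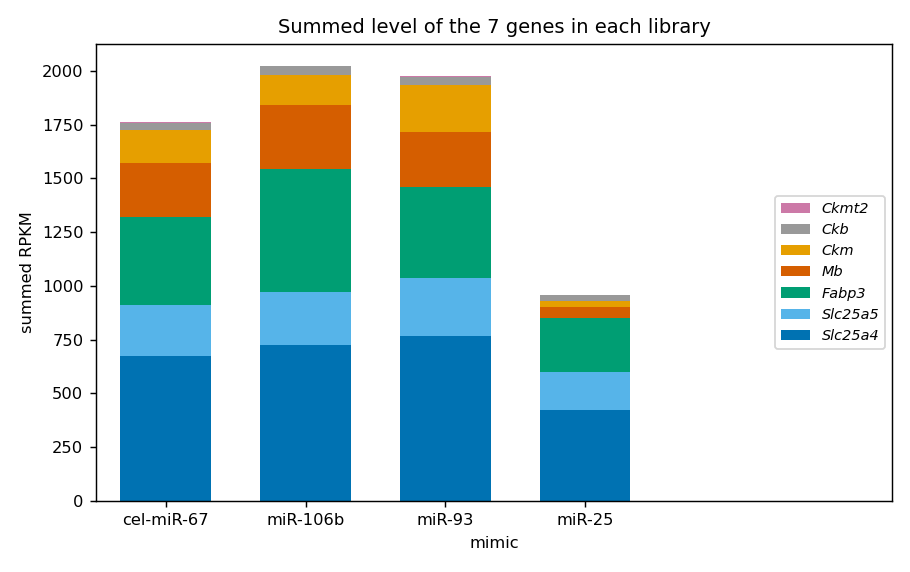
Summed RPKM of the 7 genes in each library, stacked by gene from 0. The miR-25 bar reaches 956 RPKM and the others 1760 to 2024, and the parts of Ckm and Mb show the largest fold reductions, while in RPKM Slc25a4 (251) and Mb (201) differ most from the control.

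Ckm, the cytosolic muscle enzyme, was at 150 RPKM in the control library, 28.2 after miR-25, 221 after miR-93 and 142 after miR-106b, from 4887, 1106, 8667 and 6075 reads. It was thus high in 3 libraries, highest after miR-93, and low after miR-25. Its rank by RPKM among the listed genes was 337 in the control library and 1849 in the miR-25 library. The miR-25 level was 5.31-fold lower than that of cel-miR-67 (95% interval 4.97 to 5.67), and 10 of the 11198 genes tested had a lower ratio. After miR-93 the log2 ratio to control was 0.56 (0.51 to 0.61), past the cutoff, and after miR-106b it was -0.08 (-0.13 to -0.02).

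Ckmt2, the mitochondrial muscle enzyme, was far lower, at 3.52 RPKM in the control library, 0.849 after miR-25, 4.17 after miR-93 and 3.24 after miR-106b. The reads behind these levels were 100, 29, 143 and 121. The miR-25 level falls below the cutoff of 1.0 RPKM, so Ckmt2 is outside the tested genes there. Its ratio, 4.14-fold lower than control, had a wide interval (2.72 to 6.50). The other 3 libraries lay within 1.29-fold, and neither miR-106b nor miR-93 differed from control beyond counting error (log2 -0.51 to 0.28 and -0.13 to 0.63).

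Ckb, the brain type enzyme, was at 34.6 RPKM in the control library, 25.9 after miR-25, 38.3 after miR-93 and 39.1 after miR-106b. The 4 libraries spanned 1.51-fold, the narrowest range of the 7 genes. The miR-25 level was 1.33-fold lower than control (1.23 to 1.45), just past the cutoff, and 2326 of 11198 genes tested had a lower ratio. The log2 ratio was 0.15 (0.04 to 0.26) after miR-93 and 0.18 (0.07 to 0.29) after miR-106b, and these 2 libraries did not differ from each other beyond counting error (-0.13 to 0.07).

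Mb, which stores oxygen, was at 252 RPKM in the control library, 51.2 after miR-25, 256 after miR-93 and 298 after miR-106b. As for Ckm, a single library stood low. The miR-25 level was 4.93-fold lower than control (4.64 to 5.24), and 12 of the genes tested had a lower ratio. The miR-93 library did not differ from control beyond counting error (log2 -0.03 to 0.08), and after miR-106b the log2 ratio was 0.24 (0.19 to 0.29).

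Fabp3, the fatty acid carrier of the heart, was at 407 RPKM in the control library, 248 after miR-25, 420 after miR-93 and 571 after miR-106b. It was the only member past the cutoff after miR-106b, with a log2 ratio of 0.49 (0.45 to 0.53). The miR-93 and control libraries did not differ beyond counting error (log2 -0.003 to 0.09). The miR-25 level was 1.64-fold lower than control (1.58 to 1.70).

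Slc25a4, the carrier of heart and skeletal muscle, was at 672 RPKM in the control library, 421 after miR-25, 766 after miR-93 and 723 after miR-106b, and ranked between 31 and 70 among the listed genes. After miR-25 it was 1.59-fold lower than control (1.56 to 1.63). Slc25a5, the carrier of dividing cells, was at 241 RPKM in the control library, 180 after miR-25, 273 after miR-93 and 247 after miR-106b. Its miR-25 level was 1.34-fold lower than control (1.29 to 1.39). Both carriers had log2 ratios between 0.03 and 0.19 after miR-106b and miR-93. RefSeq names 9 pseudogenes after Slc25a5 and 1 after Slc25a4, none of them listed under that symbol here, and reads shared with such copies make both levels uncertain. Of the other members, Mb overlaps 2 genes and Fabp3 overlaps 1 in RefSeq, as Slc25a5 does with 1, and whether strand was used in counting is not given in the sources used here.

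Counted against cel-miR-67, 6 of the 6 members tested after miR-25 were downregulated and none upregulated, beside 22.6% of all genes tested downregulated and 19.3% upregulated. Relative to the cardiomyocyte marker genes described further on, only Ckm and Mb of the members tested were still downregulated after miR-25, while Ckb, Fabp3, Slc25a4 and Slc25a5 turned to log2 ratios above 0. Ckmt2, outside the tested genes there, was at -1.14 relative to these markers. Under that centring 84.2% of all genes tested were upregulated and 2.62% downregulated, so that ratios above 0 are what most genes show there. Ckm was the only one of 7 members upregulated after miR-93, where 15.1% of all genes tested were upregulated and 15.6% downregulated. Fabp3 was likewise the only one of 7 after miR-106b, where 11.9% were upregulated and 12.7% downregulated. No member was downregulated after either mimic. The median log2 ratio of the members tested was -0.69 after miR-25, 0.18 after miR-93 and 0.11 after miR-106b, and that of all genes tested lay between -0.01 and 0.00. The 3 comparisons share the control library. Scaling to the reads on listed genes would add 0.15 to every log2 ratio after miR-25 or miR-93 and 0.08 after miR-106b. Under it Ckb and Slc25a5 were no longer past the cutoff after miR-25, and Ckmt2 joined Ckm after miR-93. The same scaling moved the upregulated share of all genes called from 46.1% to 64.8% after miR-25, from 49.2% to 72.3% after miR-93 and from 48.2% to 64.7% after miR-106b.

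**Figure D3:**
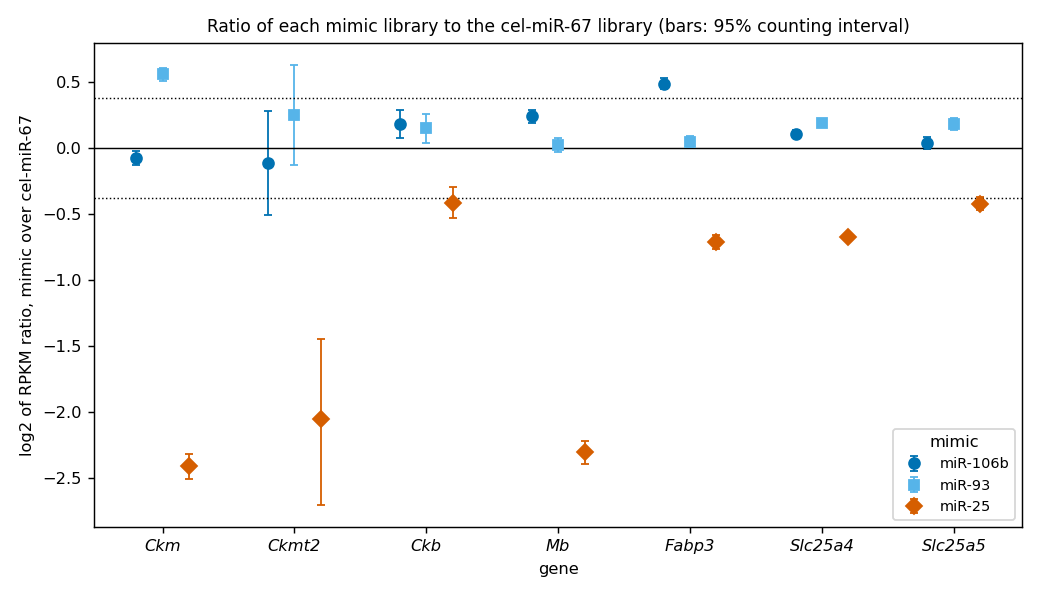
Log2 ratio of RPKM of each mimic library over the cel-miR-67 library for the 7 genes, with 95% exact counting intervals as bars and dotted lines at 1.3-fold in either direction. After miR-25 the points of Ckm, Mb and Ckmt2 lie between -2.41 and -2.05 and those of the other 4 genes between -0.71 and -0.41; relative to the cardiomyocyte markers these 4 lie above 0.

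Set against each other, the mimics with the same seed differed past 1.3-fold in 2 of the 7 members, Ckm and Fabp3. The share of all genes past 1.3-fold in this comparison was not computed. Ckm was 1.55-fold higher after miR-93 than after miR-106b (log2 0.64, 0.59 to 0.68), and 211 of 11391 genes tested had a higher ratio. For Fabp3 the log2 ratio of miR-93 over miR-106b was -0.45 (-0.48 to -0.41), and 699 of the genes tested had a lower ratio. The other 5 members lay between -0.22 for Mb and 0.36 for Ckmt2. Which members pass depends on scaling: Ckmt2 was at 0.43 when scaled to reads on listed genes and 0.59 relative to the cardiomyocyte markers, and Fabp3 at -0.22 relative to these. Against the 2 mimics of the other seed, the miR-25 library had Ckm 5.03-fold and 7.82-fold lower, in the order miR-106b and miR-93, and Mb 5.82-fold and 5.01-fold lower. The same 2 values were 2.30-fold and 1.69-fold for Fabp3 and 1.72-fold and 1.82-fold for Slc25a4. Ckb was 1.51-fold and 1.48-fold lower, and Slc25a5 was 1.37-fold and 1.52-fold lower, but relative to the cardiomyocyte markers neither gene was past the cutoff against either mimic. The log2 ratios of miR-25 over miR-106b were then -0.03 for Ckb, -0.22 for Slc25a4 and 0.10 for Slc25a5, and those over miR-93 were -0.30 for Ckb and -0.34 for Slc25a5.

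The balance between the brain and the muscle form of creatine kinase was taken as the ratio of their RPKM values within a library, which does not depend on scaling between libraries. Ckb over Ckm was 0.231 in the control library (0.216 to 0.246), 0.919 after miR-25 (0.845 to 1.00), 0.174 after miR-93 (0.165 to 0.183) and 0.276 after miR-106b (0.261 to 0.291). The 4 intervals are apart from each other, and miR-25 stands far above the rest. Ckb thereby made up 47.9% of the summed Ckb and Ckm level after miR-25 and between 14.8% and 21.6% in the other libraries. On the scale of the deposited values Ckb was itself lower after miR-25, at 25.9 RPKM against 34.6 in the control. Ckm was at 28.2 against 150. Which cells hold each transcript cannot be told from bulk RNA. Against cel-miR-67 the ratio was 3.99-fold higher after miR-25 (3.58 to 4.43), 1.20-fold higher after miR-106b (1.10 to 1.298) and 0.753-fold after miR-93 (0.693 to 0.819).

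Between the mitochondrial and the cytosolic muscle enzyme, no shift against the control was detectable at this depth. Ckmt2 over Ckm was 0.0235 in the control library, 0.0301 after miR-25, 0.0189 after miR-93 and 0.0228 after miR-106b, and the interval of the change after miR-25 reached from 0.813-fold to 1.97-fold, since 29 reads stand behind the Ckmt2 level. Against miR-93 the change was 1.59-fold (1.02 to 2.40). The balance of the carriers moved little. Slc25a5 over Slc25a4 was 0.359 in the control library, 0.427 after miR-25, 0.357 after miR-93 and 0.341 after miR-106b. After miR-25 the ratio was 1.19-fold that of the control (1.14 to 1.24), and after miR-93 it did not differ beyond counting error (0.958 to 1.03).

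**Figure D4:**
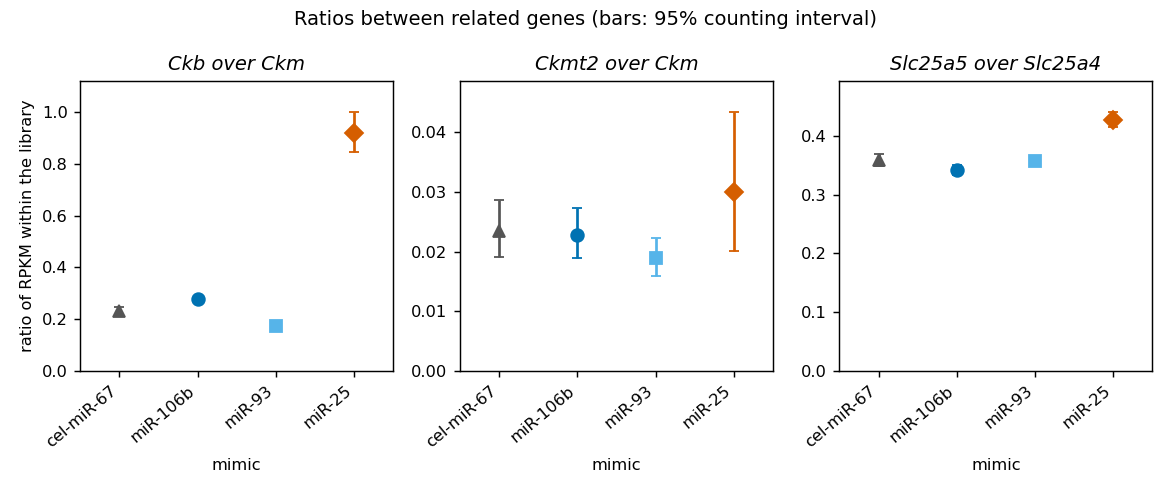
Ratio of RPKM values within each library for 3 pairs of related genes, from 0, with 95% exact counting intervals as bars. Ckb over Ckm stands at 0.919 after miR-25 and at 0.174 to 0.276 elsewhere, while the Ckmt2 over Ckm interval after miR-25 covers the control value.

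The starts of 3 members are shown, picked by their log2 ratios after miR-25, which were -2.41 for Ckm, -2.30 for Mb and -0.41 for Ckb. The start of Ckmt2, at -2.05 and outside the tested genes there, is not printed. The bases before the RefSeq start are printed 5′ to 3′ (build GRCr8; Ckm plus strand, chr1:88189211-88189381; Mb minus strand, chr7:110647743-110647992; Ckb minus strand, chr6:136553465-136553714). All 7 members matched the RefSeq promoters, and for Ckm the last 79 bases of the 250 before the start are left out because they lie inside the gene as another RefSeq entry places it. Capitals mark matches, on either strand, to CANNTG (the E-box), TATAAA and the MEF2 motif.
Ckm: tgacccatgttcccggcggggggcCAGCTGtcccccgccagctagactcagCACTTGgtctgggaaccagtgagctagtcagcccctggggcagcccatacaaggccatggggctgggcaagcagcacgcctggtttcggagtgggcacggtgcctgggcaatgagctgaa
Mb: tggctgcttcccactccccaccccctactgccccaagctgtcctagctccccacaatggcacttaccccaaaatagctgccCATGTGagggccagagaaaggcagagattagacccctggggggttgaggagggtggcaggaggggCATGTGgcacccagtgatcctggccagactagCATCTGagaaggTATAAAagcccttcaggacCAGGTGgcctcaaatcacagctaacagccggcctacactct
Ckb: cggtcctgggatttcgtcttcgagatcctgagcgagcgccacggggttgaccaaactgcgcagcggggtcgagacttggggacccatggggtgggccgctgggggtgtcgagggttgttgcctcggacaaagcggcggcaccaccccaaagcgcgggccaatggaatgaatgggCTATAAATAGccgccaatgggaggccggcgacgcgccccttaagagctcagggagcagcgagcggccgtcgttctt
In the full 250 bases CANNTG was found 3 times for Ckm, 4 times for Mb, 2 times each for Ckmt2 and Slc25a5, 1 time for Fabp3 and 0 times for Ckb and Slc25a4. Of 33469 rat promoter windows of that length, 65.5% hold it at least 1 time. The share that holds it 3 or 4 times was not computed. TATAAA was found for Mb and Ckb (12.9% of windows), and a MEF2 motif for Ckb (0.523% of windows), where it overlaps the TATAAA match. The GC box GGGCGG was found for Ckmt2 and Slc25a5 (30.5% of windows), and neither the CArG motif (1.497%) nor AAGGTCA (3.99%) was found for any member. A match describes the letters of the window and not a binding site.

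The label of the cells was checked against marker genes. The cardiomyocyte marker Tnnt2 was at 1750 to 2433 RPKM, and all 19 cardiomyocyte markers found were above 1.0 RPKM in every library. Among genes that define other cell types, Col1a1 of fibroblasts was at 38.4 to 66.8 RPKM, Myh11 of smooth muscle at 7.62 to 27.6, Csf1r of macrophages at 1.53 to 2.92, and Alas2 of red cell precursors and Sox10 of glia below 0.25 RPKM. No marker found was at 0 in any library, and Pecam1 of endothelium is not analysed here.

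Cardiomyocyte markers differed between libraries as well. The summed cardiomyocyte level was 25604 RPKM in the control library, 14541.5 after miR-25, 17358 after miR-93 and 22479 after miR-106b. A few high genes carry this sum, such as Actc1 (7073 RPKM in the control, 2733 after miR-93). After miR-25, 17 of 19 cardiomyocyte markers were downregulated and 1, Nkx2-5, upregulated (log2 0.88), with a median log2 ratio of -0.91. After miR-93, 8 were downregulated and 3 upregulated (median -0.24), and after miR-106b 6 and 1 (median -0.06). In bulk RNA, fewer cells of a type and less RNA per cell cannot be told apart. Only Tnni3, the cardiac troponin I gene, had a lower ratio after miR-25 (log2 -4.47) than Ckm and Mb, whereas 17 of 19 markers lay below Ckb and Slc25a5, and 10 of 19 below Fabp3 and Slc25a4. After miR-93 all 19 markers lay below Ckm, 16 below Ckmt2, Ckb, Slc25a4 and Slc25a5, and 15 below Mb and Fabp3. After miR-106b 18 of 19 lay below Fabp3, 17 below Ckb and Mb, 15 below Slc25a4, 13 below Slc25a5 and 9 below Ckm and Ckmt2.

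Markers of the other cells shifted too. After miR-25 the summed smooth muscle level was 2056 RPKM against 751 in the control (590 after miR-93 and 692 after miR-106b), and 4 of 5 of these markers were upregulated. These were Acta2, Tagln and Cnn1, which immature cardiomyocytes also express, and the defining gene Myh11 (log2 0.99, 0.92 to 1.07). The remaining marker, Smtn, was downregulated (log2 -0.46). Most of the summed level after miR-25 was that of Tagln (1306 RPKM), Acta2 (440) and Cnn1 (278), with Myh11 at 27.6. The summed fibroblast level was 334 RPKM after miR-25 against 835 in the control (751 after miR-93 and 648 after miR-106b). Much of it was Col3a1, at 130 RPKM after miR-25 against 327 in the control, and Col1a2, at 77.6 against 284. After miR-25, 7 of 9 fibroblast markers were downregulated, Lum was upregulated (log2 0.87) and Thy1 stayed within the cutoff (0.26). The summed levels of the macrophage, endothelial, red blood cell and nerve lists ranged over 6.34 to 14.0, 4.04 to 5.32, 5.02 to 9.96 and 3.02 to 4.01 RPKM. The part of these shifts in the members' ratios was not tested.

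**Figure D5:**
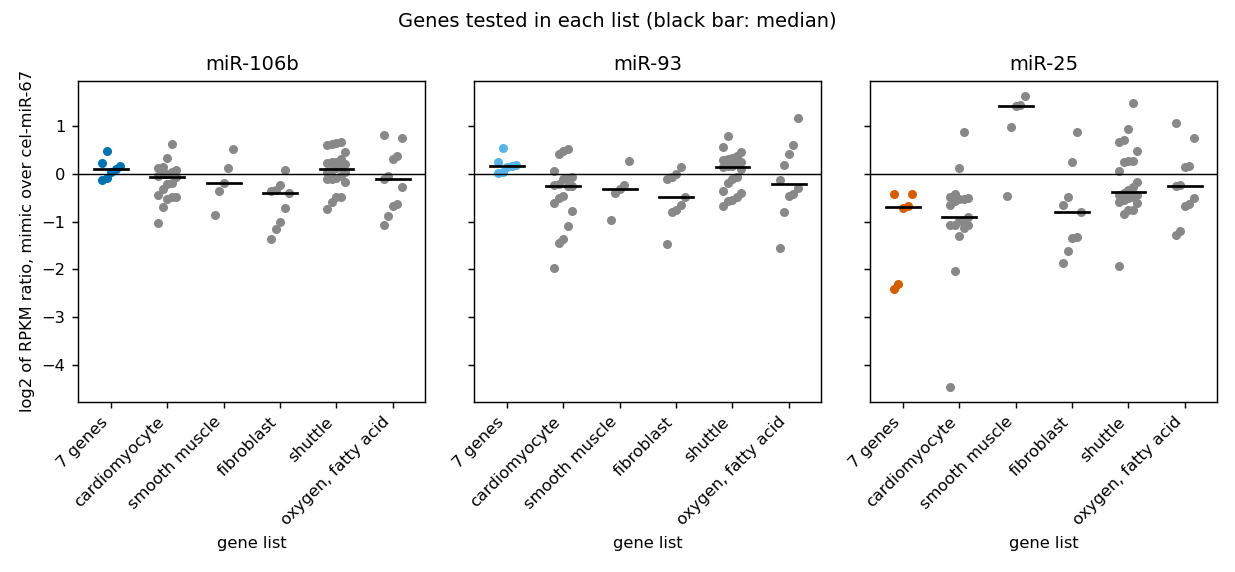
Log2 ratio of RPKM, mimic over cel-miR-67, of each gene tested, by list, with a panel for each mimic and a black bar at each median. After miR-25 the 6 members tested have a median of -0.69 and the cardiomyocyte markers one of -0.91, and Ckm and Mb lie below all cardiomyocyte markers but Tnni3; relative to that marker median the other 4 members lie above 0.

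Other genes of the same energy shuttle were called in both directions after each mimic. The list holds 26 genes of creatine synthesis and uptake, adenylate kinases, mitochondrial carriers and pores, and AMP sensing. After miR-25, 12 of 24 tested were downregulated and 5 upregulated, beside 22.6% and 19.3% of all genes tested. Their median log2 ratio was -0.37. Scaling to reads on listed genes turned this into 7 downregulated and 8 upregulated, beside 15.9% and 29.3% of all genes. Centred on the cardiomyocyte markers, 1 was downregulated and 17 upregulated, beside 2.62% and 84.2% of all genes. After miR-106b 5 of 24 were upregulated and 4 downregulated, beside 11.9% and 12.7% of all genes. After miR-93 3 of 22 were upregulated and 5 downregulated, beside 15.1% and 15.6% of all genes. Scaled to reads on listed genes, the miR-93 counts were 8 and 3, beside 25.1% and 9.65%. Centred on the markers they were 12 and 1, beside 34.6% and 7.48%. The median log2 ratio was 0.15 after miR-93 and 0.11 after miR-106b.

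Creatine itself is made by Gatm and Gamt in sequence. Gatm was at 8.13 RPKM in the control library, 2.15 after miR-25, 5.55 after miR-93 and 10.1 after miR-106b, a log2 ratio of -1.92 after miR-25 (-2.20 to -1.65). Gamt was at 16.8, 9.33, 21.1 and 17.2 RPKM in the same order, a log2 ratio of -0.84 after miR-25 (-1.05 to -0.64). Both genes were thus downregulated after miR-25, but relative to the cardiomyocyte markers Gatm was at -1.01 and Gamt at 0.06. Slc25a24, an ATP-Mg and phosphate carrier of the inner mitochondrial membrane, moved the other way, at 13.8 RPKM after miR-25 against 7.16 in the control (log2 0.95, 0.81 to 1.09), and was at 5.41 after miR-93 and 4.76 after miR-106b. Ckmt1b, a creatine kinase gene of the same list and not a member, was at 1.87 RPKM in the control and 2.99 after miR-25. It was thus upregulated after miR-25 (log2 0.68, 0.30 to 1.06). Its level was 1.66 after miR-106b and, below the cutoff of 1.0 RPKM, 0.448 after miR-93.

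In this list Ak3, Prkaa2, Ak6 and Hk2 were past the cutoff in the same direction after all 3 mimics. Ak3, a mitochondrial matrix kinase, had log2 ratios of -0.75 after miR-25, -0.56 after miR-93 and -0.47 after miR-106b, and Prkaa2, a catalytic subunit of AMP-activated kinase, -0.59, -0.66 and -0.49 in the same order. Relative to the cardiomyocyte markers the miR-25 ratios of both turned to 0.16 and 0.32, and that of Ak3 after miR-93 was -0.31. Upregulated with all 3 were Ak6, a nuclear kinase, with 0.71, 0.79 and 0.65, and Hk2, a hexokinase that binds mitochondria, with 0.49, 0.47 and 0.63. No member was past the cutoff in this way, and the share of all genes that were was not computed. The 3 comparisons share the control library, so their calls are not independent.

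Genes of oxygen handling and fatty acid uptake, the company of Mb and Fabp3, were called in both directions on the scale of the deposited values. Of 16 listed, 13 were found. After miR-25, 5 of 11 tested were downregulated and 2 upregulated, after miR-93 4 and 3 of 10, and after miR-106b 4 and 2 of 11. Of all genes tested, 22.6% were downregulated and 19.3% upregulated after miR-25, 15.6% and 15.1% after miR-93, and 12.7% and 11.9% after miR-106b. The median log2 ratios of the list were -0.25 after miR-25, -0.22 after miR-93 and -0.10 after miR-106b. Under scaling to reads on listed genes the counts downregulated and upregulated became 4 and 2 after miR-25, 2 and 3 after miR-93 and 4 and 4 after miR-106b. Centred on the cardiomyocyte markers they were 0 and 7, 2 and 4, and 4 and 3 in the same order. The shares of all genes were 15.9% and 29.3%, 9.65% and 25.1%, and 9.08% and 16.7% when scaled to reads on listed genes. Under the centring these shares were 2.62% and 84.2%, 7.48% and 34.6%, and 9.94% and 15.3%.

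Lpl, which frees fatty acids from lipoproteins, was at 42.7 RPKM in the control library, 17.7 after miR-25, 31.9 after miR-93 and 26.7 after miR-106b. Cd36, which takes them up, was at 35.8, 25.3, 20.6 and 23.1 RPKM in the same order. Both were downregulated after all 3 mimics, but relative to the cardiomyocyte markers the log2 ratios after miR-25 were -0.37 for Lpl, short of the cutoff, and 0.41 for Cd36. Scaled to reads on listed genes, Lpl after miR-93 and Cd36 after miR-25 were short of the cutoff as well, at -0.28 and -0.35. Fabp5, a relative of Fabp3, was at 34.4, 15.02, 28.0 and 44.7 RPKM, and only the miR-25 value was past the cutoff (log2 -1.20, -1.40 to -0.99, or -0.29 relative to the markers). Slc27a1, a fatty acid transport protein, was upregulated after all 3 mimics, at 2.84 RPKM after miR-25, 3.08 after miR-93 and 2.39 after miR-106b against 1.36 in the control. Egln3, a hydroxylase that marks hypoxia-inducible factors for degradation, was at 15.05 RPKM after miR-93 and 20.9 after miR-106b against 43.9 in the control, and at 48.5 after miR-25.

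The genes most like a member in their 3 log2 ratios were sought among 4045 genes above 10 RPKM in all libraries, by Euclidean distance. Nearest to Ckm were A930016O22Rik (distance 0.25) and Atp2a2 (0.42), the calcium pump of the sarcoplasmic reticulum, which was at 103 RPKM after miR-25 and 422 in the control. Whether A930016O22Rik adjoins or overlaps Ckm, and so may share reads with it, was not tested. Nearest to Mb were Atp2a2 (0.52) and Pgam1 (0.59), a glycolytic enzyme gene at 45.6 RPKM after miR-25 and 156 in the control. Nearest to Ckb were Mrps22 (0.04) and Ndufaf1 (0.05), of the mitochondrial ribosome and of complex I assembly, and nearest to Slc25a4 were Itga4 (0.04) and Col1a1 (0.05), an integrin and a collagen gene. These smaller distances are not comparable with those of Ckm and Mb, whose ratios few genes reach. After miR-25, 10 and 12 genes tested had lower ratios than Ckm and Mb, against 2326 and 1264 for Ckb and Slc25a4. The likeness is over 3 ratios with a shared control and no replicates.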

How the data were processed

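RNA of 4 cultures, 1 for each mimic, was sequenced by the authors as single reads, checked with FASTQC, trimmed with Cutadapt and aligned with STAR 2.7 to Rnor 6.0. The counting program is not given in the sources used here. The deposited values are RPKM, which the authors computed from rounded gene counts with edgeR, and the table of the whole series equals the tables of the samples.

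Library sizes (22674410 to 29749467) and whole reads were recovered from the ratios of RPKM values for all 15731 genes; the sizes were not whole numbers and may hold a scaling factor that is not given in the sources used here, and a factor common to a gene's reads and its length cannot be seen. Reads on listed genes made up 60.4% to 66.9% of the library size.

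Genes with RPKM above 1.0 in both libraries were tested, and those past 1.3-fold, without a pseudocount, were called. No count model or p-value was used, since each mimic has 1 library. Ratios carry 95% Clopper-Pearson intervals, levels exact Poisson intervals and changes of a pair ratio exact conditional intervals; these cover counting error only, and PCR reads without identifiers are not independent molecules. The recovery and the intervals were tested on simulated data. Members and lists were chosen with earlier results of these data known. Genes named from the lists are the 3 with the largest ratio above 10 RPKM and those past the cutoff in 1 direction with all 3 mimics; the 2 nearest genes were named for Ckm, Ckb, Mb and Slc25a4. Tnni3, Acta2, Tagln and Cnn1 were named among the markers after their values were seen. Ckmt1b was named outside these rules, as a further creatine kinase gene. The 176 symbols listed more than once were left out of the lists and of the nearest genes. Motifs and names came from RefSeq, build GRCr8, whose gene coordinates were not joined to the deposited values. Alternatives were a pseudocount of 1, RPKM cutoffs of 2.0 or none, a fold cutoff of 1.5, and 3 other scalings. Scripts ran in Python 3.11.15 (matplotlib 3.10.9, pandas 2.3.3, scipy 1.17.1, numpy 2.4.6).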

Additional observations from a re-analysis of the deposited data

How the results depend on the processing

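No paired analysis was possible because each mimic has 1 library. For the same reason no library could be left out, and depth limits Ckmt2 most among the members; the intervals of Ckb (1.23 to 1.45) and Slc25a5 (1.292 to 1.387) after miR-25 also reach to both sides of 1.3-fold. Of 123 recomputed counts and pair changes, 105 stayed within 1.5 times the reported count or inside the counting interval. Pair changes from reads not scaled to length are among the 105 and equal the reported ones by construction, because length cancels. Member counts that stayed at 0 are among them too, and with RPKM above 2.0 no member count could change, since the same members pass. Also among the 105 are the falls from 6 to 4 members downregulated after miR-25, at a fold cutoff of 1.5 and when scaled to reads on listed genes. Of 168 recomputed log2 ratios of members, 104 stayed inside the counting interval, 59 moved out of it and 5 reversed. The median gene lay between -0.0123 and 0.00304 in these comparisons, so centring on it could hardly move a ratio. A pseudocount of 1 RPKM moved only ratios of Ckmt2 out of the interval. All other moves and the reversals came from scaling to reads on listed genes or centring on the cardiomyocyte markers. At a fold cutoff of 1.5, 2727 genes were called after miR-25 (reported 4698), 1723 after miR-93 (3469) and 1235 after miR-106b (2776), no member was upregulated after miR-106b or miR-93 (0 each, reported 1), the shuttle list had 2 called after miR-93 (reported 8) and 10 after miR-25 (reported 17), and the oxygen and fatty acid list had 4 after miR-93 (reported 7). Fewer genes pass a higher cutoff by construction. Without an RPKM cutoff other than 0, the counts were 7744, 6329 and 5720 in the same order, since genes of few reads enter. Scaled to reads on listed genes, 2 members were upregulated after miR-93. Centred on the cardiomyocyte markers, which shifts the ratios by 0.91 after miR-25, 0.24 after miR-93 and 0.06 after miR-106b, 5 members were upregulated after miR-93, where 34.6% of all genes tested were, while after miR-25 the members called were 2 up and 2 down, beside 84.2% and 2.62% of all genes. For all genes and the lists this centring was chosen after seeing the data, and it called 9719 genes after miR-25 and 13 of the shuttle list after miR-93. The log2 ratios that reversed under this centring were those of miR-25 over control for Ckb (0.49), Fabp3 (0.19), Slc25a4 (0.23) and Slc25a5 (0.49), and of miR-25 over miR-106b for Slc25a5 (0.10). With a pseudocount of 1 RPKM, the log2 change of Ckmt2 over Ckm after miR-25 was 1.08 (reported 0.36), since Ckmt2 is below 1 RPKM there.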
